A study of Homo sapiens with 9 samples.

Results

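Tandem CTCF sites are CTCF peaks that lie close to another CTCF peak. They were taken here as the wild-type CTCF peaks on chromosomes 1 to 22 and X whose summit lay within 1000 bp of the summit of another peak of the same list. Of 52982 peaks, 4375 (8.26%) met this rule, and they formed 1899 groups of neighbouring peaks. They were compared with 30194 isolated peaks, whose nearest other summit was over 10 kb away. The remaining 18413 peaks lay between these limits. Members were chosen by the summit positions of the wild-type CTCF list alone, and a peak had to pass the authors' threshold to count as a neighbour.

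Peaks came from ChIP-nexus libraries of HEC-1-B, an established line of human uterine adenocarcinoma. In ChIP-nexus, chromatin pulled down with an antibody is trimmed by exonucleases until the bound protein blocks them, which maps binding at near base resolution. Unmodified wild-type cells gave a library each for CTCF, RAD21 and ZNF143, and ZNF143 knockout cells (ZNF143KO) gave libraries for CTCF and RAD21. Cells whose CTCF carries an auxin-inducible degron (CTCF-AID) were profiled for the same factor, CTCF, and for ZNF143, before (0 h) and after 24 h of the auxin IAA. The labels' protocol describes degradation of AID-tagged protein in cells that express TIR1. Whether the knockout or the degron line is a single clone is not given in the sources used here, and the loss of ZNF143 or of CTCF protein was taken from the labels. The 9 groups hold 1 library apiece, and no comparison could therefore be checked against the spread of replicates. Intervals are 95% binomial intervals that cover counting error over peaks only, and partners of a pair share their position and are not independent.

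CTCF is a zinc-finger protein that binds DNA in a fixed orientation and stops the cohesin complex as it extrudes chromatin loops. RAD21 is the subunit that closes the cohesin ring, and its ChIP signal accumulates at CTCF sites. ZNF143 is a zinc-finger factor of promoters that is often mapped near CTCF and cohesin. Neighbouring CTCF sites are known from boundaries of chromatin domains and from clustered gene families, where several sites can act as successive barriers to cohesin.

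The lists differed in threshold and in background, which was taken here as a guide to depth. Knockout peaks reached down to a −log10 q of 5.00, and peaks of the other lists to 3.02 or less. The background derived from the deposited values for CTCF, in reads per kb, came to 8.63 for wild type, 18.9 for the knockout, 12.75 at 0 h and 3.875 at 24 h. The RAD21 libraries had 7.81 (wild type) and 26.1 (knockout) reads per kb. The knockout lists, with 63420 CTCF and 56861 RAD21 peaks, were the longest, and the 24 h CTCF list, with 13865 peaks, was the shortest. CTCF peaks had a median width of 90 bp in wild type, 101 bp in the knockout, 169 bp at 0 h and 71 bp at 24 h, so a 0 h peak reached a neighbouring site more easily. The part of depth, threshold and width in the shares below was not tested beyond the alternatives given with them.

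Most tandem sites were simple pairs. There were 1670 pairs (3340 peaks), 141 groups of 3 (423 peaks) and 88 groups of 4 to 19 peaks (612 peaks). The larger groups had a different genomic setting from the pairs. Of their peaks, 76.3% (72.7 to 79.6) lay within 1 Mb of the longest stretch of their chromosome that carried no peak in any list, which on most chromosomes of this assembly holds the unsequenced centromere. The share was 30.5% in groups of 3, 7.60% in pairs and 1.04% among isolated peaks. The fullest group held 19 peaks at chr1:564497-569583, with signals up to 4.26, and 0 of its peaks overlapped a wild-type RAD21 or ZNF143 peak. Next came 18 peaks at chr10:42596714-42600458 and 18 at chr10:42383268-42389518, both beside the empty stretch. In the former group 16 peaks overlapped RAD21 and 18 were found in the knockout CTCF list. In the latter group 18 overlapped RAD21, but 1 was found in the knockout CTCF list and 0 in the knockout RAD21 list, whereas 17 were found in the CTCF list at 24 h. These 3 groups had median local backgrounds of 7.69, 9.90 and 19.0 reads, against 0.340 at isolated peaks. Whether the peaks of such large groups are separate CTCF sites was not tested, and the values of that class carry this limit. It was not tested for pairs either. Of the pairs at most 150 bp apart, 79 had both partners in the knockout CTCF list, 44 of them under 1 knockout peak.

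**Figure D1:**
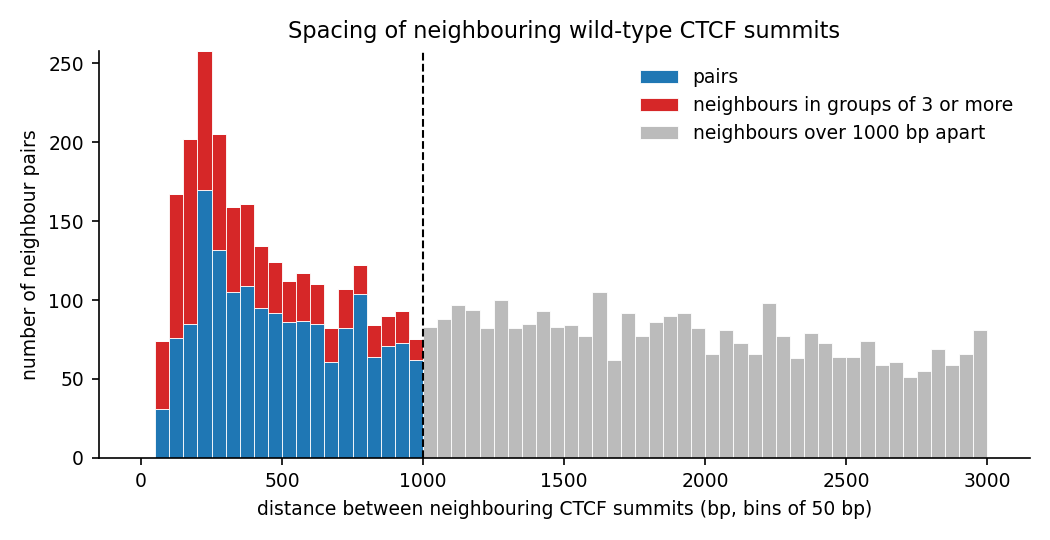
Number of neighbouring wild-type CTCF summits by distance, in bins of 50 bp, for pairs (blue), for groups of 3 or more (red) and for neighbours over 1000 bp apart (grey). Pairs are most frequent from 200 to 250 bp, with 170 pairs, and the dashed line marks the 1000 bp limit, at which the counts show no break.

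The spacing of partners was bounded by the rule, which took summits at most 1000 bp apart. The median distance between summits was 467.5 bp (quartiles 269.25 and 722), and 53.6% of pairs were at most 500 bp apart. In bins of 50 bp the number of pairs climbed from 31 at 50 to 100 bp to 170 at 200 to 250 bp and then declined to 62 at 950 to 1000 bp, with a second fuller bin of 104 at 750 to 800 bp. The shortest distance between summits of a pair was 68 bp and the shortest distance between their intervals 39 bp. Sites closer than that appear as a single peak, so very close tandem sites are not in these counts. The stronger partner had the lower coordinate in 51.0% of pairs. The 297 peaks just inside the limit (nearest summit over 900 to 1000 bp away) had a median signal of 12.7 and RAD21 at 76.1%, and the 297 just outside (over 1000 to 1100 bp) 13.1 and 75.1%. Pairs were most frequent on chromosome 19, where they held 10.1% of the CTCF peaks, and least frequent on chromosome 6, with 4.05%.

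The signal of tandem sites was lower than that of isolated sites, but their read counts were not. The signal is the authors' fold enrichment at the summit over the local background, and it is used here only within a list. Its median was 10.7 (quartiles 7.17 and 16.9) at tandem sites and 14.7 (8.92 and 21.4) at isolated sites. It was 12.5 in pairs, 8.94 in groups of 3 and 5.20 in groups of 4 or more. The number of reads stacked at the summit, derived from the deposited fold and −log10 p, had a median of 21 in pairs and 19 at isolated sites. The local background had a median of 0.678 reads in pairs against 0.340 at isolated sites, and 5.63 in groups of 4 or more. The fold is by definition lowered by a higher local background, so tandem and isolated peaks of equal signal do not have equal read counts. Shares of isolated sites at equal strength therefore depend on the scale chosen, and the text names it. The settings behind the local background are not given, and it may include reads of a neighbouring peak. Isolated peaks have no close neighbour by the rule that chose them. Part of the higher background at tandem sites, and so of their lower signal, may therefore follow from that rule. This was not tested, and the limit holds for each comparison at equal signal below. Comparisons at equal summit count have a limit too, since the count includes background reads and equal counts are not equal signals. With 17 to 20 reads the signal went from 4.31 to 16.7 in pairs and from 8.14 to 17.0 at isolated sites. Summit counts reached their ceiling of 54 at 8.82% of peaks in groups of 4 or more and at 0.0299% of paired peaks.

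**Figure D2:**
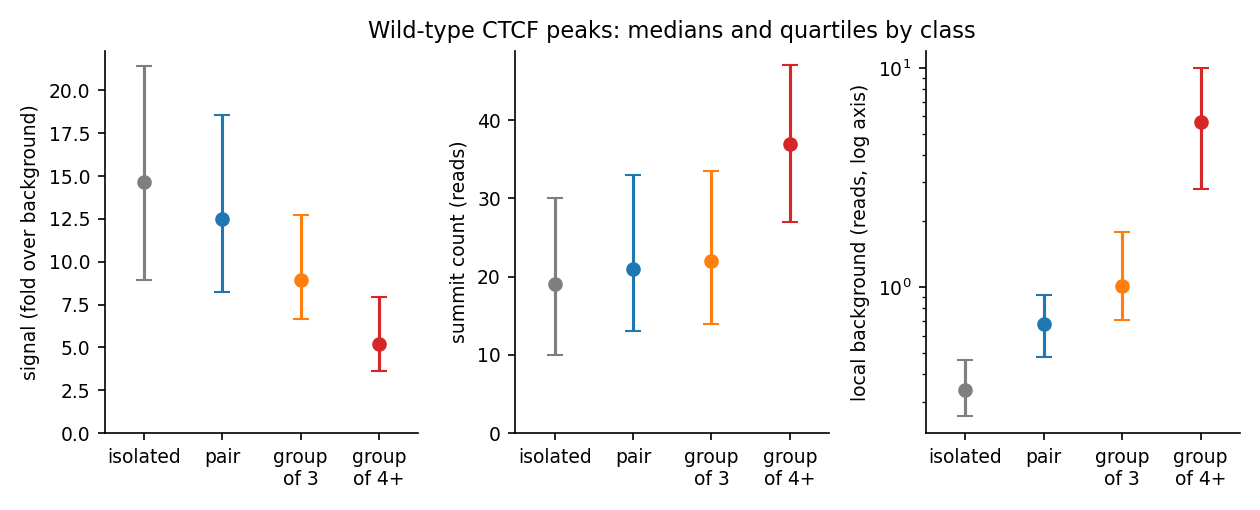
Median (point) and quartiles (bars) of the signal in fold over background, the summit count in reads and the local background in reads (log axis) of wild-type CTCF peaks by class. From isolated peaks to groups of 4 or more the median signal goes from 14.7 to 5.20 while the median background goes from 0.340 to 5.63 reads.

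The partners of a pair were ranked by signal, so the higher signal of the stronger one follows from that ranking. Whether partners differ more than peaks drawn at random was not tested. The stronger partner had a median signal of 17.6 and a median summit count of 30 reads, the weaker partner 8.96 and 15 reads. The median ratio of stronger to weaker signal was 1.55 (quartiles 1.21 and 2.23), and in 32.0% of pairs it was at least 2. Their local backgrounds were alike, with medians of 0.678 and 0.679 reads.

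Cohesin was less frequent at tandem than at isolated CTCF sites. A wild-type RAD21 peak overlapped 69.8% of tandem sites (68.4 to 71.1) and 76.9% of isolated sites (76.4 to 77.4), a difference of -7.14 percentage points (Newcombe interval -8.60 to -5.71), where 76.4% of all wild-type CTCF peaks had one. The share was 69.8% in pairs, 65.7% in groups of 3 and 72.5% in groups of 4 or more. At equal summit count the gap was wider. Isolated sites with the pairs' distribution of summit counts carried RAD21 in 81.8% of cases, which put the pairs at -12.1 points. At equal signal the gap was narrow, with 72.5% at isolated sites against 69.8% in pairs, and over all tandem sites it changed sign, to +2.84 points. In the middle of the range the difference by summit count was large: with 17 to 20 reads, 72.1% of paired and 89.6% of isolated peaks had RAD21. RAD21 peaks at pairs themselves had a higher local background than those at isolated sites, with medians of 0.535 and 0.311 reads, and its part in the lower share was not tested.

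**Figure D3:**
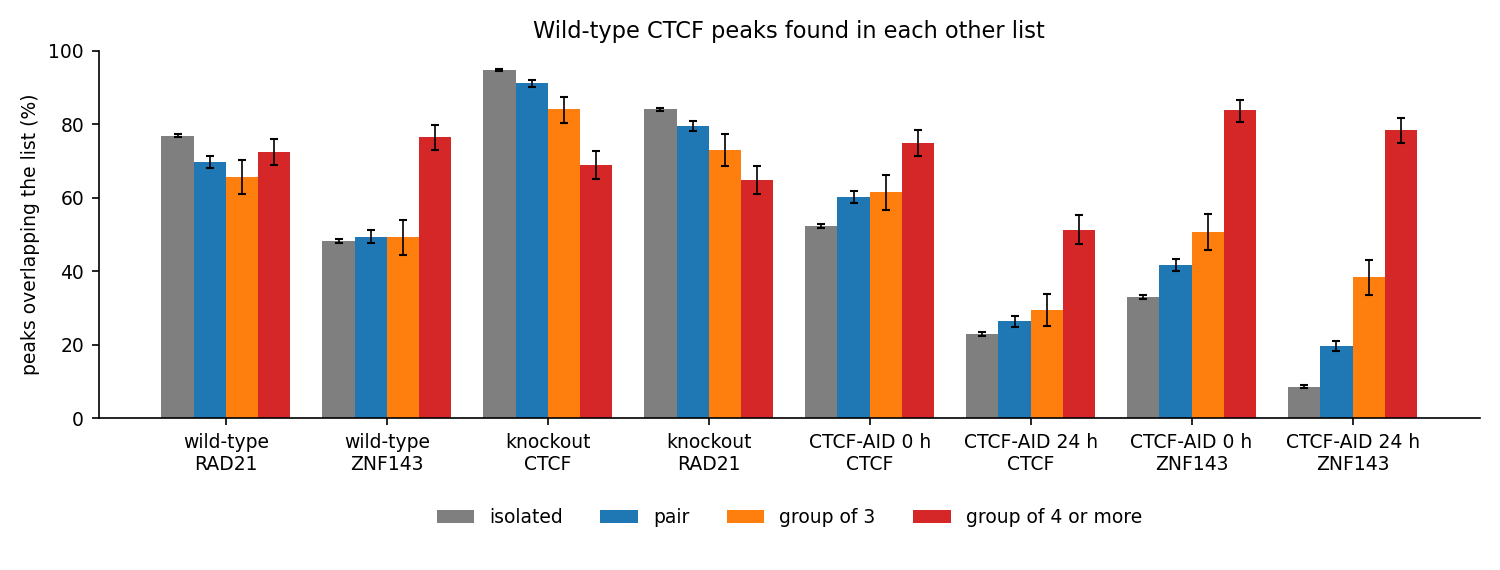
Share of wild-type CTCF peaks (%, bars with exact 95% intervals) that overlap a peak of each other list, for isolated peaks (grey), pairs (blue), groups of 3 (orange) and groups of 4 or more (red). Among the classes, groups of 4 or more have the lowest share in the knockout CTCF list, 69.0%, and the highest in the 24 h ZNF143 list, 78.4%.

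**Figure D4:**
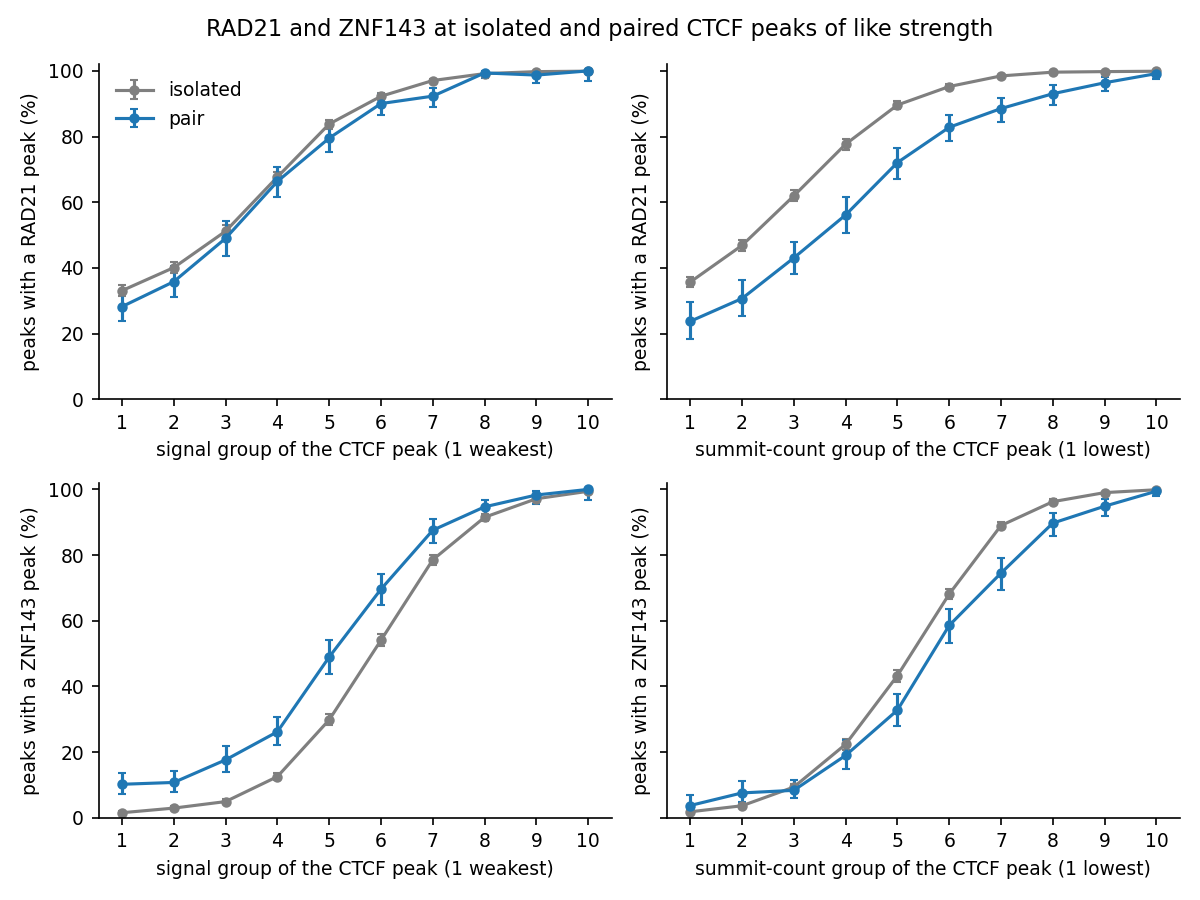
Share of isolated (grey) and paired (blue) wild-type CTCF peaks with a RAD21 (upper panels) or ZNF143 peak (lower panels), in 10 groups of signal (left) or of summit count (right), with exact 95% intervals. By summit count the paired peaks lie below the isolated ones for RAD21 in each group. For ZNF143 they lie above by signal, and by summit count they lie above in groups 1 and 2 and below from group 3 upward.

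Both partners of a pair had cohesin in about as many pairs as not. RAD21 lay at both partners in 817 of 1670 pairs (48.9%, 46.5 to 51.3), at 1 partner in 696 (41.7%) and at neither in 157 (9.40%). Where only 1 partner had RAD21 it was the stronger one in 607 of 696 pairs (87.2%, 84.5 to 89.6). The stronger partner carried RAD21 in 85.3% of pairs and the weaker one in 54.3%. Isolated sites with the weaker partners' summit counts had it in 72.6% of cases, and those with the stronger partners' counts in 91.1%. At equal summit count the weaker partner thus differed from isolated sites by -18.4 points and the stronger by -5.78. At equal signal isolated sites had 59.1% and 86.0%, and the differences were -4.83 points at the weaker and -0.700 at the stronger partner. With no adjustment the stronger partner lay above the 76.9% of isolated sites. The pairs with the highest weaker partner and RAD21 at both lay at chr1:150532526-150532654 and chr1:150533501-150533617, with signals of 23.1 and 23.5, at chr11:35843474-35843572 and chr11:35843769-35843921 (24.7 and 23.1), and at chr1:91630927-91631080 and chr1:91631775-91631923 (23.2 and 22.7). Each of these 6 peaks also had ZNF143 in wild type, RAD21 in the knockout and CTCF at 24 h.

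Strong pairs could still have cohesin at a single partner or at none. The pair at chr16:68834295-68834445 and chr16:68835119-68835184 had CTCF signals of 21.2 and 19.0 and a wild-type RAD21 peak at the former site alone, with a RAD21 signal of 22.1. The pair at chr12:56472803-56472932 and chr12:56473137-56473270 had CTCF signals of 22.7 and 18.4 and RAD21 at the former site alone (RAD21 signal 20.2). In the knockout RAD21 list both sites of each pair had a peak. The site without wild-type RAD21 had the lower knockout signal, 5.79 against 18.2 on chromosome 16 and 7.18 against 17.5 on chromosome 12. Without RAD21 at either partner the strongest pairs lay at chr9:19464772-19464917 and chr9:19465079-19465152 (CTCF signals 19.2 and 15.2) and at chr1:204006055-204006171 and chr1:204006225-204006352 (15.1 and 17.5). On chromosome 9 both partners had RAD21 in the knockout list, and on chromosome 1 the stronger one did.

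**Figure D5:**
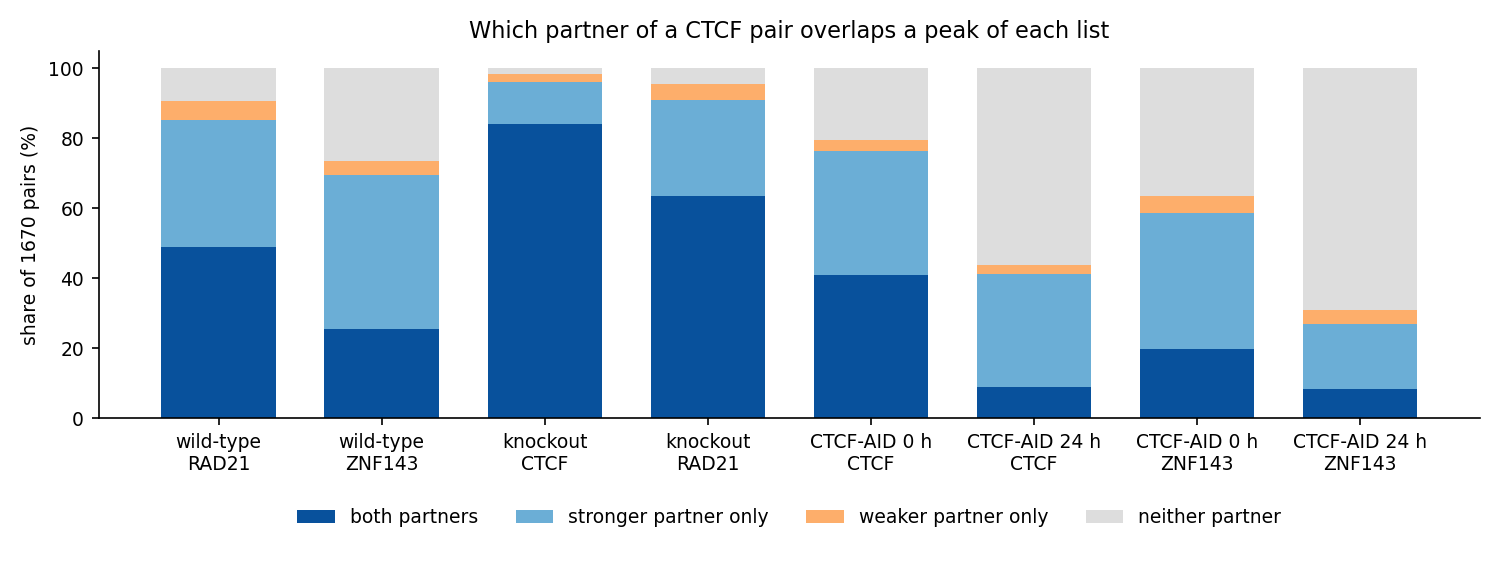
Share of the 1670 pairs (%) in which both partners, only the stronger, only the weaker or neither partner overlaps a peak of each list. Overlap at the weaker partner alone is the smallest class except in the knockout lists, where neither partner is, and both partners are found in 84.0% of pairs in the knockout CTCF list and in 8.98% in the 24 h CTCF list.

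Among pairs over 150 bp apart, wild-type cohesin at both partners was more frequent in wider pairs. RAD21 lay at both in 38.4% (32.4 to 44.7) of the 255 pairs spaced over 150 to 250 bp, in 44.5% over 250 to 400 bp, in 51.8% over 400 to 700 bp and in 55.7% (51.0 to 60.3) of the 456 pairs over 700 to 1000 bp. In the 107 pairs of at most 150 bp the share was 45.8% (36.1 to 55.7), and there 22 of 49 pairs had a single RAD21 peak across both partners. With a separate RAD21 peak required at each partner the share went from 25.2% in the closest pairs to 55.7% in the widest. RAD21 peaks had a median width of 101 bp, and the part of width in this share was not tested. Knockout RAD21 lay at both partners in 70.1% (60.5 to 78.6) of the closest pairs, where 53 of 75 had a single peak across both. From there to the widest pairs the knockout shares were 56.1%, 60.1%, 62.8% and 69.5% (65.1 to 73.7). The weaker partner's summit count moved with spacing as well, with medians of 11, 12, 14, 16 and 15.5 reads from the closest to the widest pairs, and its part in these shares was not tested. In all, 33 pairs had both CTCF peaks under 1 wild-type RAD21 peak. The RAD21 summit lay between the CTCF summits in 24 of them, and it lay within 30 bp of a CTCF summit in 20.

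RAD21 summits lay close to the CTCF summits on either side. In pairs with separate RAD21 peaks its median distance from the CTCF summit was 14 bp (quartiles 5 and 28), against 15 bp (6 and 28) at isolated sites. It lay on the side of the partner at 1064 peaks and on the far side at 1154, or 48.0% toward the partner (45.9 to 50.1). In the knockout the share toward the partner was 49.7% (47.7 to 51.8) with a median distance of 13 bp, against 14 bp at isolated sites. In the closest pairs, at most 150 bp apart, the share was 33.0% (23.6 to 43.4), with 31 wild-type peaks toward and 63 away from the partner. A RAD21 summit near the midpoint there falls under a peak shared by both partners more easily, and such peaks were left out of this count.

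ZNF143 was about as frequent in pairs as at isolated sites, and more frequent in the large groups. A wild-type ZNF143 peak overlapped 53.2% of tandem sites (51.7 to 54.7) and 48.3% of isolated sites (47.7 to 48.8), a difference of 4.93 points (3.35 to 6.51), where 50.6% of all wild-type CTCF peaks had one. Without sites within 1 Mb of the empty stretches the difference was -0.358 points (-2.10 to 1.39). The share was 49.4% in pairs, a difference of 1.18 points (-0.609 to 2.96) from isolated sites, and 76.5% in groups of 4 or more. Relative to isolated sites of equal signal the pairs differed in ZNF143 by 10.3 points, and relative to isolated sites of equal summit count by -4.62 points, the opposite order. ZNF143 lay at both partners in 423 pairs (25.3%), at 1 partner in 805 (48.2%) and at neither in 442 (26.5%). Where it lay at 1 partner this was the stronger in 91.6% of pairs (89.4 to 93.4).

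ZNF143 and RAD21 were mostly found at the same partner. Among 439 pairs with RAD21 at 1 partner and ZNF143 at 1 partner, both lay at the same partner in 412 (93.8%, 91.2 to 95.9). Both factors favoured the stronger partner, so this count holds that shared preference. ZNF143 at both partners was found in 44.9% of pairs with RAD21 at both, in 7.18% of those with RAD21 at 1 and in 3.82% of those with RAD21 at neither. ZNF143 summits lay a median 9 bp from the CTCF summits in pairs and 10 bp at isolated sites.

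Tandem sites were found again in the ZNF143 knockout less often than isolated sites. Of the tandem sites 87.4% (86.4 to 88.4) overlapped a knockout CTCF peak, against 94.7% (94.4 to 94.9) of isolated sites and 94.0% of all wild-type CTCF peaks, a difference of -7.24 points (-8.29 to -6.26). The large groups carried much of it, since the share was 91.2% in pairs, 84.2% in groups of 3 and 69.0% in groups of 4 or more. Without sites within 1 Mb of the empty stretches the difference was -2.91 points. With each CTCF list held to its 13865 peaks of highest signal the difference was -61.7 points. In the shortened knockout list 17.5% of 573 tandem and 79.1% of 8460 isolated sites were found. These wild-type peaks come from signal groups 8 to 10, the highest of the 10. In the full knockout list 100% of tandem and 100% of isolated sites were found in each of those groups. The -61.7 points thus concern the rank of the knockout peaks by signal, not their absence from the full list. In the full knockout list, the signal at the 3047 paired peaks found again had a median of 15.3 over a local background of 1.31 reads. At the 28585 isolated sites found again it was 19.8 over 0.753 reads. These medians do not cover the sites of the shortened lists alone, and their part in the -61.7 points was not tested. Both partners were kept in 1403 of 1670 pairs (84.0%, 82.2 to 85.7), and 93 of these had both wild-type peaks under a single knockout peak. Where 1 partner was kept it was the stronger in 83.8% of 241 pairs.

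Retention of both CTCF partners in the knockout was ordered by the presence of ZNF143 and RAD21 in wild type. Both were kept in 93.4% (90.6 to 95.6) of pairs with ZNF143 at both partners, in 84.5% with ZNF143 at 1 and in 74.2% (69.9 to 78.2) with ZNF143 at neither. They were kept in 95.6% of pairs with RAD21 at both, in 76.1% with RAD21 at 1 and in 58.6% with RAD21 at neither. Pairs that lacked either factor also had weaker CTCF peaks, and these shares are not adjusted for strength.

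Pairs with cohesin at both partners mostly kept it there in the knockout. RAD21 remained at both partners in 768 of 817 such pairs (94.0%, 92.1 to 95.5), at 1 in 48 and at neither in 1. Over single peaks, 97.8% of all wild-type CTCF peaks with RAD21 also overlapped a knockout RAD21 peak, and the share was 96.8% in pairs and 98.3% at isolated sites, a difference of -1.47 points (-2.27 to -0.804). With a RAD21 peak of its own required at each partner in both lists, 688 of 784 pairs (87.8%) kept both. The share that kept RAD21 at both was 95.9% (93.3 to 97.7) with ZNF143 at both partners, 91.7% (88.2 to 94.4) with ZNF143 at 1 and 94.7% (88.8 to 98.0) with ZNF143 at neither. These intervals overlap. The strongest pairs that kept RAD21 at fewer partners lay at chr11:58291743-58291823 and chr11:58292161-58292299 and at chr17:37126602-37126741 and chr17:37127223-37127299. In each the weaker CTCF partner was the one without knockout RAD21, and its wild-type RAD21 signal of 6.29 or 7.60 was under that of the other partner, 14.9 or 16.4.

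The knockout RAD21 list, which had the higher derived background, also held peaks at partners without wild-type RAD21. The part of depth in these added peaks was not tested. Of 696 pairs with RAD21 at 1 partner in wild type, 263 (37.8%) had it at both in the knockout, and of 157 pairs with RAD21 at neither, 30 had it at both and 68 at 1. The knockout RAD21 list overlapped 79.5% of paired peaks and 84.1% of isolated peaks, where 83.4% of all wild-type CTCF peaks overlapped it. When the same rule was applied to the knockout CTCF list on its own, 5452 of its peaks (8.60%) were tandem and formed 2227 pairs. Knockout RAD21 lay at 75.6% (74.3 to 76.8) of those paired peaks and at 78.1% (77.7 to 78.5) of isolated ones, or 81.7% at isolated ones of equal summit count. It lay at both partners in 56.9% (54.9 to 59.0) of these pairs. With no adjustment and at equal summit count, the RAD21 share at paired CTCF sites was thus below that at isolated sites in these libraries too. A share at equal signal, the scale on which the wild-type gap was narrow, was not derived for the knockout list.

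With no adjustment, the untreated degron line gave the opposite order for CTCF itself. Of the tandem sites 62.3% (60.9 to 63.8) were found in the CTCF-AID 0 h list, against 52.2% (51.6 to 52.8) of isolated sites and 55.1% of all. Isolated sites had 62.7% at the tandem sites' summit counts, a difference of -0.375 points, and 37.3% at their signals. In pairs the share was 60.1%, against 58.3% at isolated sites of equal summit count and 44.0% at those of equal signal. Both partners were found in 682 pairs (40.8%), and in 122 of these they lay under 1 of the wide 0 h peaks.

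In the 24 h list most pairs had CTCF at the stronger partner alone or at neither, and many had been so before auxin. At 0 h 592 pairs (35.4%) had a CTCF peak at the stronger partner only and 344 (20.6%) at neither. In the 24 h list CTCF peaks were found at both partners in 150 of 1670 pairs (8.98%), at 1 in 581 and at neither in 939 (56.2%), where 25.6% of all wild-type CTCF peaks overlapped that list. Of the 682 pairs with both partners at 0 h, 144 (21.1%, 18.1 to 24.4) had both at 24 h, 280 (41.1%) the stronger only, 38 (5.57%) the weaker only and 220 (32.3%) neither. Among peaks found at 0 h, 46.4% of tandem sites (44.5 to 48.2) were found at 24 h, against 43.7% (42.9 to 44.5) of isolated sites and 46.1% of all, a difference of 2.64 points (0.624 to 4.67). This value was 10.6 points against isolated peaks beyond 50 kb and 9.53 with a reciprocal overlap of 50%. In pairs alone the difference was -0.430 points (-2.72 to 1.88). The stronger partner remained in 53.5% of cases and isolated sites of equal summit count in 53.8%, and the weaker partner in 25.6% (22.5 to 28.9) against 29.0%. At equal signal the isolated sites had lower shares, 37.0% and 13.0%.

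Named pairs show each outcome. Both pairs with the highest weaker partner, at chr1:150532526-150533617 and on chromosome 11, kept CTCF at both sites at 24 h, with 24 h signals of 6.29 and 8.60 and of 10.6 and 9.85. The pair at chr20:23779972-23780098 and chr20:23780256-23780380 kept CTCF at the former site alone, although the latter had the slightly higher wild-type signal, 21.8 against 21.4. Its 0 h signals were 21.4 and 6.01, so the site that was kept was the stronger at 0 h. At chr2:131555102-131555253 and chr2:131555671-131555785 the stronger site was kept, with 0 h signals of 21.6 and 15.2. Neither site was kept at chr7:30101564-30101707 and chr7:30102355-30102464, which had equal wild-type signals of 21.6 and 0 h signals of 9.44 and 10.9. The same held at chr1:212208379-212208525 and chr1:212208568-212208682, where a single 0 h peak of signal 17.5 covered both.

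ZNF143 stayed at tandem sites more often than at isolated CTCF sites after auxin. In the 24 h ZNF143 list a peak overlapped 29.6% of tandem and 8.57% of isolated sites, where 12.2% of all wild-type CTCF peaks had one. At 0 h the shares were 48.4% and 33.0%, with 37.3% of all. Among peaks with ZNF143 both in wild type and at 0 h, of which 33.0% over the whole list kept it at 24 h, ZNF143 was found at 24 h in 60.1% of tandem sites (57.8 to 62.3) and 26.7% of isolated sites. The share was 93.9% in groups of 4 or more, 73.2% in groups of 3 and 46.3% (43.5 to 49.1) in pairs. Isolated sites kept it in 31.8% of cases at the pairs' summit counts and in 24.6% at their signals. Away from the empty stretches the pairs' share was 40.7% (37.8 to 43.6), against 32.8% at isolated sites of equal summit count and 21.3% at those of equal signal. Among these peaks the share was 46.4% at stronger and 45.9% at weaker partners. Over all pairs, 24 h ZNF143 was found at 27.0% of stronger and 12.0% of weaker partners. Where CTCF was also found at 24 h, ZNF143 was kept at 53.7% of paired peaks and 34.3% of isolated ones, and where it was not, at 32.1% and 10.7%. Sites without wild-type RAD21 kept ZNF143 more often than those with it in both classes, at 67.1% (55.1 to 77.7) of 73 against 45.0% of 1183 paired peaks and at 65.1% (56.2 to 73.3) of 129 against 26.2% of 9367 isolated peaks.

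For comparison, the isolated CTCF peaks of highest signal lay at chr14:107183266-107183373 and chr22:35420148-35420305, with signals of 33.8 and 33.5 and local backgrounds of 0.478 and 0.494 reads. Their nearest other summits were 10380 and 13072 bp away. Each had RAD21 and ZNF143 in wild type and CTCF and RAD21 in the knockout. Each had CTCF at 0 h and 24 h, and ZNF143 at 0 h but not at 24 h.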

How the data were processed

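The authors deposited 1 peak list per sample on hg19, named with GRCh37 in the submitters' processing notes. These notes list cutadapt 2.10, Bowtie2 2.3.5.1, SAMtools 1.12, MACS2 2.2.7.1 and deepTools, and the peak settings, filters and any pooling are not given in the sources used here. The values deposited by the authors are a score, a fold enrichment (a ratio, called signal), −log10 p and −log10 q, and the summit offset. Coordinates are 1-based, and no hg19 sequence or gene annotation was used here.

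Peaks were grouped by summit distance (1000 bp, 10 kb) and counted as overlapping from 1 bp. A whole summit count and a local background were solved from the fold, taken as (count + 1) / (background + 1), and the Poisson −log10 p, within 0.002 for 100% of peaks in each list. Background per kb is the most frequent background divided by the shortest peak length. Shares carry exact (Clopper-Pearson) 95% intervals and their differences Newcombe intervals. Shares at equal strength are isolated shares weighted to the members' distribution over 10 groups of signal or of summit count. With 1 library per group no test between conditions was possible. Named pairs are those ranked highest by the weaker partner's signal within each outcome, outside chromosome 8, with the largest groups and the strongest isolated peaks. The members, lists and comparisons were chosen with earlier results of these data known. The code was tested on simulated lists, with 0 of 537 peaks misclassified and 0 of 2658 summit counts missed. Scripts ran in Python 3.11.15 with scipy 1.17.1 for intervals, pandas 2.3.3 and numpy 2.4.6 for tables, and matplotlib 3.10.9 for plots.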

Additional observations from a re-analysis of the deposited data

Results flagged for a closer look

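Tandem peaks also appeared outside the chromosomes compared. On the mitochondrial and unplaced sequences the wild-type CTCF list held 349 peaks, and 157 of them (45.0%, 39.7 to 50.4) had another summit within 1000 bp, where the same rule took 8.26% of the peaks on chromosomes 1 to 22 and X. The count is listed because these sequences enter no comparison and it is over the 3 that a count of 0 allows, a bound that is easily passed. It was not tested. Their median local background was 1.52 reads, between that of groups of 3 and that of groups of 4 or more.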

How the results depend on the processing

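Of 71 alternative values of 8 results, 29 lay inside the 95% interval given in the report (within 1.5 times for the number of sites), 34 moved and 8 changed sign. Differences are tandem minus isolated in points. Pairs only, summit-count weighting, the removal of sites near empty stretches and separate RAD21 peaks in both lists were chosen after the data were seen. Merging touching peaks removed 0 peaks, so its values equal the reported ones by construction and are among the 29. The number of tandem sites could not change with the 50 kb limit either, and that value is also among them. No paired analysis was possible because each group had 1 library. Unless a value or the construction shows it, the cause was not tested. Peaks under a list's threshold count as absent, so a site not found in a list may still be bound.

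The RAD21 difference was -9.43 with a 500 bp window, -4.72 with 2000 bp, 2.84 at equal signal, -8.80 without sites near empty stretches, -14.4 at equal summit count and -12.1 for pairs at equal summit count. The ZNF143 difference was 11.1 against isolated peaks beyond 50 kb, 10.2 with a reciprocal overlap of 50%, 20.5 at equal signal, 1.18 for pairs, -0.358 without sites near empty stretches, -5.66 at equal summit count and -4.62 for pairs at equal summit count. Knockout CTCF retention differed by -9.53 (500 bp), -4.65 (2000 bp), -9.18 (reciprocal overlap), -3.80 (equal signal), -61.7 (lists of 13865), -3.44 (pairs), -2.91 (away from empty stretches), -9.79 (equal summit count) and -5.44 (pairs at equal summit count).

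The 24 h CTCF difference was 10.6 against isolated peaks beyond 50 kb, 9.53 with reciprocal overlap, 23.8 at equal signal, -0.430 for pairs, -1.71 away from empty stretches, -0.667 at equal summit count and -1.48 for pairs at equal summit count. The number of tandem sites was 2625 with 500 bp and 7426 with 2000 bp. The difference of median signals, -4.01, was -5.03 with 500 bp, -2.89 with 2000 bp, -2.52 beyond 50 kb and -2.18 for pairs. Pairs with RAD21 at both came to 44.8% (500 bp), 53.0% (2000 bp) and 35.3% (reciprocal overlap). Those that kept it in the knockout came to 96.6% (2000 bp), 72.2% (reciprocal overlap), 87.8% (separate peaks) and 95.9% (away from empty stretches).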
